A study of Homo sapiens with 9 samples.

Results

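The 2 libraries labelled TE11 with an shRNA against KDM2A were set against the 2 Kyse150 libraries with a control shRNA, 4 of the 9 libraries of the study. Genes were joined by Ensembl identifier, and 20809 of the 52165 identifiers present in both count tables had at least 1 count in each table and were not mitochondrial. Of these, 13548 passed the filter on low counts and were tested. Kyse150 and TE11 are both human esophageal squamous cell carcinoma lines, grown in RPMI 1640 with serum, and polyadenylated RNA was sequenced. The Kyse150 controls carry the genotype label Control and an shRNA named shNC, and the TE11 libraries of this comparison carry an shRNA named shKDM2A. The 5 other libraries, used here to place the levels, are 2 Kyse150 knockdown and 3 TE11 control libraries. The comparison asks what separates the libraries labelled TE11 knockdown from the Kyse150 controls, KDM2A included. Labelled line, labelled shRNA and count table all differ between the 2 groups, so their parts cannot be told apart in any difference below. The line label of the TE11 knockdown libraries was not borne out by the levels given below. Nor was their knockdown label borne out by KDM2A beside the TE11 controls. Each fold is thus a difference between libraries as labelled, and may not be one between the lines. Counts assigned to genes came to 7036676 and 7167055 in the Kyse150 controls and to 8457767 and 8924443 in the labelled TE11 knockdown. Replicates are labelled independent, with no word on what was repeated, and p-values here cover the spread among these libraries alone, part of which may be technical.

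KDM2A is a JmjC-domain histone demethylase that removes methyl groups from lysine 36 of histone H3. Its CXXC zinc finger binds unmethylated CpG dinucleotides, which places the protein at CpG islands. Esophageal squamous carcinoma cells resemble the basal layer of a stratified epithelium and usually express keratin 5 and the transcription factor TP63.

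Promoters are shown for KDM2A, the gene named in the shRNA label, and for FOXD1, AREG and NOTCH3, which had some of the most distinct levels in the labelled TE11 knockdown. Each is the 250 bases before the RefSeq start of the gene, 5′ to 3′ on the gene's own strand, from GRCh38.p14, with CpG dinucleotides in capitals. KDM2A lies at chr11:67119013-67119262 on the plus strand, FOXD1 at chr5:73448778-73449027 on the minus strand, AREG at chr4:74444886-74445135 on the plus strand and NOTCH3 at chr19:15200996-15201245 on the minus strand.
KDM2A: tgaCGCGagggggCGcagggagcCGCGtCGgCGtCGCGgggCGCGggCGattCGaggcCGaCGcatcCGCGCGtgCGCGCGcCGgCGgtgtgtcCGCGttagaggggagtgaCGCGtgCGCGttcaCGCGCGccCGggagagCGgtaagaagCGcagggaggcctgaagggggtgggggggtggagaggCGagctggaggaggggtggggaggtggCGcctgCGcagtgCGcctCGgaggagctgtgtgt
FOXD1: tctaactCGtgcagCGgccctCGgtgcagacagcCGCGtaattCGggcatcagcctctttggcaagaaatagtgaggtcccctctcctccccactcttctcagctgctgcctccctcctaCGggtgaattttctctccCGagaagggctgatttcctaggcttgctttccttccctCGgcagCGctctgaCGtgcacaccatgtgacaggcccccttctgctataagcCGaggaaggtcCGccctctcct
AREG: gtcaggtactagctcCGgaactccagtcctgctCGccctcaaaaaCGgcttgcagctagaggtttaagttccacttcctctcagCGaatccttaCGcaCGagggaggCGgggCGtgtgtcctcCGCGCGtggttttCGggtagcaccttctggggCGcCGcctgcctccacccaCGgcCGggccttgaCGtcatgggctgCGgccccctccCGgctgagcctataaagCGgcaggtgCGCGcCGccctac
NOTCH3: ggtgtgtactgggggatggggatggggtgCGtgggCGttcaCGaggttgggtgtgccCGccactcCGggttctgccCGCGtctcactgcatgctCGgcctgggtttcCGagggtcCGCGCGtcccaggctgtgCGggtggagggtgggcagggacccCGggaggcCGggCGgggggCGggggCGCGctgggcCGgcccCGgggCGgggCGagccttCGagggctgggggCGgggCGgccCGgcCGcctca
The KDM2A window held 40 CpG dinucleotides, NOTCH3 28, AREG 23 and FOXD1 13. The median was 11 over all 27305 promoters of the table and 21 over the 9781 that matched a tested gene, so AREG lay near the median of tested genes and FOXD1 below it. None of the 4 windows held the AP-1 motif TGANTCA, searched in this palindromic form, which 6.60% of all windows and 3.83% of those of tested genes held.

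The squamous identity of the labelled TE11 knockdown was checked first. Levels are given in CPM, counts relative to library size as scaled over all 9 libraries by the TMM method. KRT5, a basal keratin, stood at 1068 and 1109 CPM, beside 1244 and 1259 in the Kyse150 controls and 2708 to 3129 in the TE11 controls. TP63 stood at 134 and 133 CPM, beside 111 and 99.4 in the Kyse150 controls and 239 to 247 in the TE11 controls. SOX2, a transcription factor of the esophageal lineage, had 232 to 268 counts in the 3 TE11 controls. It had 0 and 1 counts in the labelled TE11 knockdown, and 1 and 0 in the Kyse150 controls. Of 9 tested squamous markers 3 were higher than in the Kyse150 controls and 4 lower. Over all genes tested, 32.8% were higher and 31.7% lower, so these counts lie near those shares. KRT14, a basal keratin, was at 7.44 and 5.99 CPM against 16.8 and 17.7. PKP1, a desmosomal plakophilin, was at 52.8 and 50.4 CPM with a log2 fold change of -0.74, and TRIM29 at 65.6 and 69.7 CPM against 106 and 111. In the other direction, DSC3 was at 113 and 115 CPM against 83.6 and 76.5. SERPINB5 was at 73.7 and 69.3 CPM against 50.1 and 39.1. Of 5 tested markers of columnar epithelia 4 were higher and none lower by edgeR, and DESeq2 called 0. The simple keratins KRT8 and KRT18 were at 4672 and 4774 CPM and at 1973 and 2050 CPM, beside 4738 and 4763 and 1868 and 1857 in the Kyse150 controls. In the TE11 controls they were at 1934 to 2244 and 1003 to 1101 CPM. KRT7, also a keratin of simple epithelia, was at 916 to 982 CPM in the TE11 controls, at 7.69 and 5.75 in the labelled TE11 knockdown and at 4.21 and 3.99 in the Kyse150 controls. Of 8 fibroblast, 7 leukocyte and 6 endothelial markers, 1 each had enough counts to be tested. COL1A1, a fibroblast collagen, was at 2.77 and 3.59 CPM in the labelled TE11 knockdown, and PTPRC, PECAM1 and DCN were not among the joined identifiers with counts in both tables.

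Levels of other genes that part the 2 sets of controls were compared in the same way. Protein-coding genes with no exon shared with another gene on their strand were taken where they differed at least 8-fold, with an adjusted p under 0.05, between the TE11 controls and the Kyse150 controls. There were 711 such genes higher in the TE11 controls, with a median log2 difference of 4.97. In the labelled TE11 knockdown, 650 of the 711 lay nearer the Kyse150 controls than the TE11 controls on the log2 scale, and the middle range of their difference from the Kyse150 controls ran from -1.19 to 1.12. A further 216 genes were lower in the TE11 controls, with a median of -4.11, and 191 of them lay nearer the Kyse150 controls. These counts describe levels beside controls that both differences share, and carry no test. The line label of the TE11 knockdown libraries was thus not borne out by the genes that part the controls. THBS1, thrombospondin 1, a secreted matrix protein picked after its values were seen, was at 6387 and 6269 CPM in the labelled TE11 knockdown, at 5761 and 5883 in the Kyse150 controls and at 252 to 271 in the TE11 controls.

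KDM2A, ENSG00000173120 on chromosome 11, was lower in the labelled TE11 knockdown than in the Kyse150 controls, but not lower than in the TE11 controls. It had 1084 and 1254 counts in the labelled TE11 knockdown and 1215 and 1199 in the Kyse150 controls. On the CPM scale these were 137 and 150 against 176 and 177, so the groups did not overlap, as was true of 80.9% of genes tested. The mean was 143 CPM ± 9.53 (SD, n = 2) against 177 CPM ± 0.466 (SD, n = 2). The log2 fold change was -0.33 (SE 0.06), with an adjusted p of 7.65e-07 by edgeR's quasi-likelihood test. The 2 Kyse150 knockdown libraries were at 106 and 105 CPM, the lowest of the 9. The TE11 controls were at 132, 126 and 130 CPM, all below both labelled TE11 knockdown libraries. In a fit of all 9 libraries KDM2A was 0.15 higher on the log2 scale (SE 0.07) in the labelled TE11 knockdown than in the TE11 controls, with an edgeR adjusted p of 0.0425. The same fit gave -0.74 (SE 0.08) for the Kyse150 knockdown against the Kyse150 controls, with an edgeR adjusted p of 4.88e-13. The knockdown label of the TE11 libraries was thus not borne out by the KDM2A level beside the TE11 controls. Beside the Kyse150 controls KDM2A was lower, and a part of the shRNA in that cannot be told apart from labelled line and count table. The libraries are called by their label throughout.

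**Figure D1:**
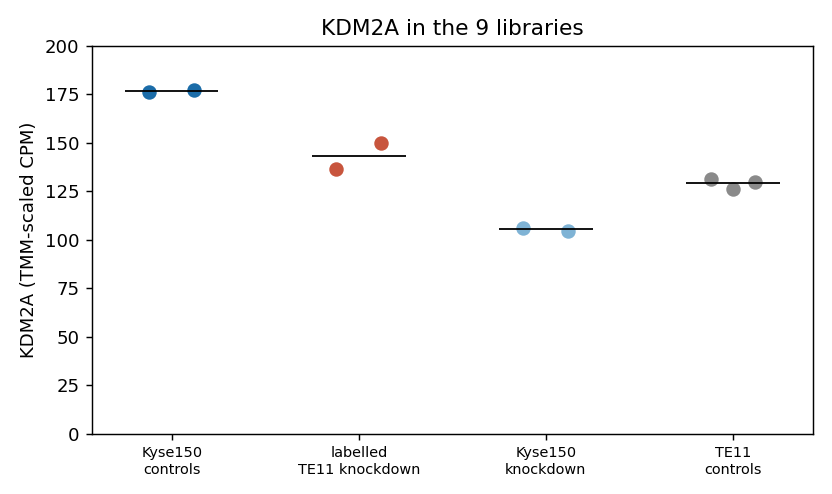
KDM2A in TMM-scaled CPM in each of the 9 libraries, with a line at each group's mean. The 2 labelled TE11 knockdown libraries, at 137 and 150, lie below the Kyse150 controls and above the TE11 controls.

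The KDM2A difference was near the middle of those in its GC bin, but KDM2A lies at the lower edge of that bin. The longest KDM2A transcript has a GC content of 51.6%, and the bin runs from 51.6% to 58.3%. Protein-coding genes in the bin had a median log2 fold change of -0.28, with 44.4% of them below KDM2A. The next lower bin, from 45.5% to 51.6%, had a median of -0.01. After a smooth trend on GC content was removed, the log2 fold change of KDM2A was -0.18 and its edgeR adjusted p 0.00202. In the fit of all 9 libraries without the trend it was -0.14 (SE 0.06), with an edgeR adjusted p of 0.0460. Of 45 tested protein-coding genes starting within 1 Mb of KDM2A, 34 were lower and 2 higher, beside 31.7% and 32.8% of all genes tested. Of the 45, 28 lay below KDM2A itself. The 45 genes had a median log2 fold change of -0.44 and a median GC content of 61.1%. With the GC trend removed their median was -0.01, with 13 higher and 12 lower, beside 26.1% and 25.6% of all genes tested.

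Across all genes, 8727 of 13548 were called at an adjusted p under 0.05, or 64.4%. Higher in the labelled TE11 knockdown were 4439 genes, or 32.8%, and lower were 4288, or 31.7%. The balance depended on the scaling, with 3862 higher and 5034 lower by upper quartile factors and 3884 and 4975 by total counts. At least doubled were 1036 genes and at least halved 1257, or 7.65% and 9.28%. In the fit of all 9 libraries this pair differed at 55.3% of 15277 genes. The Kyse150 knockdown against its own controls differed at 44% of genes, the labelled TE11 knockdown against the TE11 controls at 76.1%, and the TE11 controls against the Kyse150 controls at 78.6%. Genes at least doubled or halved made up 16.2% for this pair, 9.24% for the Kyse150 pair, 37.7% for the TE11 pair and 41.7% for the 2 sets of controls. These pairs share control libraries and are given side by side only.

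Much of the difference followed the GC content of the transcripts. The median log2 fold change fell from 0.62 in the lowest of 5 GC bins to -0.51 in the highest, through 0.32, -0.01 and -0.28. The TE11 controls, counted in the same table, had a similar course against the Kyse150 controls, from 0.65 to -0.45. Against the TE11 controls, the labelled TE11 knockdown stayed between -0.04 and 0.15 in all 5 bins. The Kyse150 knockdown ran the other way against its controls, from -0.22 to 0.13. Removing the trend left 7011 genes called, or 51.7%, with 26.1% higher and 25.6% lower, and 1512 rather than 2293 at least doubled or halved. Whether the GC course comes from library preparation, counting or the cells was not tested.

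**Figure D2:**
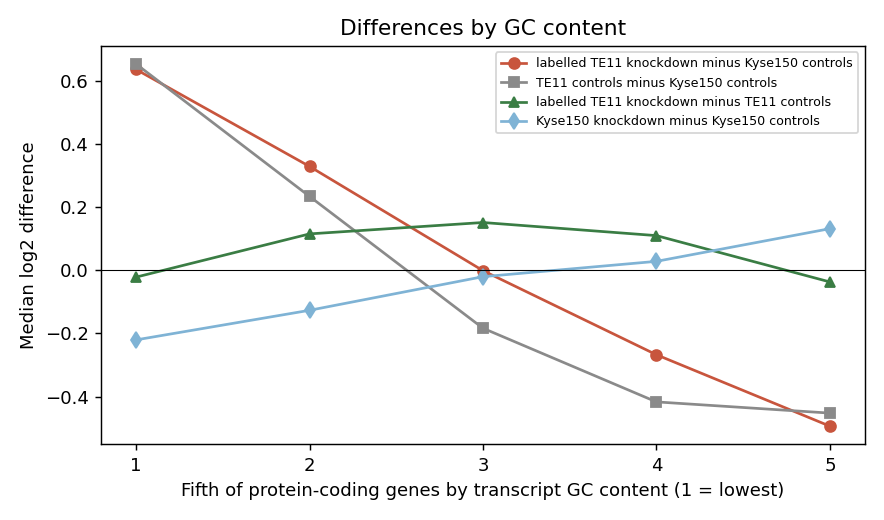
Median log2 difference of protein-coding genes in 5 bins of transcript GC content, for 4 pairs of groups. Both lines that cross between the count tables fall from above 0.6 to below -0.4, and the line within the TE11 table stays between -0.04 and 0.15.

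Position along the chromosomes was compared in windows of 40 neighbouring protein-coding genes, 274 on the autosomes. Without the GC trend, the window medians of the labelled TE11 knockdown against the Kyse150 controls ran from -0.31 to 0.38, with an SD of 0.105. No window reached a median of 0.5 in either direction. The Kyse150 knockdown against its controls gave an SD of 0.111 and also no such window. The TE11 controls against the Kyse150 controls gave an SD of 0.450 and 58 such windows, from -1.31 to 1.45. The labelled TE11 knockdown against the TE11 controls gave an SD of 0.455 and 64 such windows. Before the GC trend was removed, the SD for the labelled TE11 knockdown against the Kyse150 controls was 0.348. Chromosome medians then ran from -0.34 on chromosomes 19 and 22, which are GC rich, to 0.42 on chromosome 4.

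**Figure D3:**
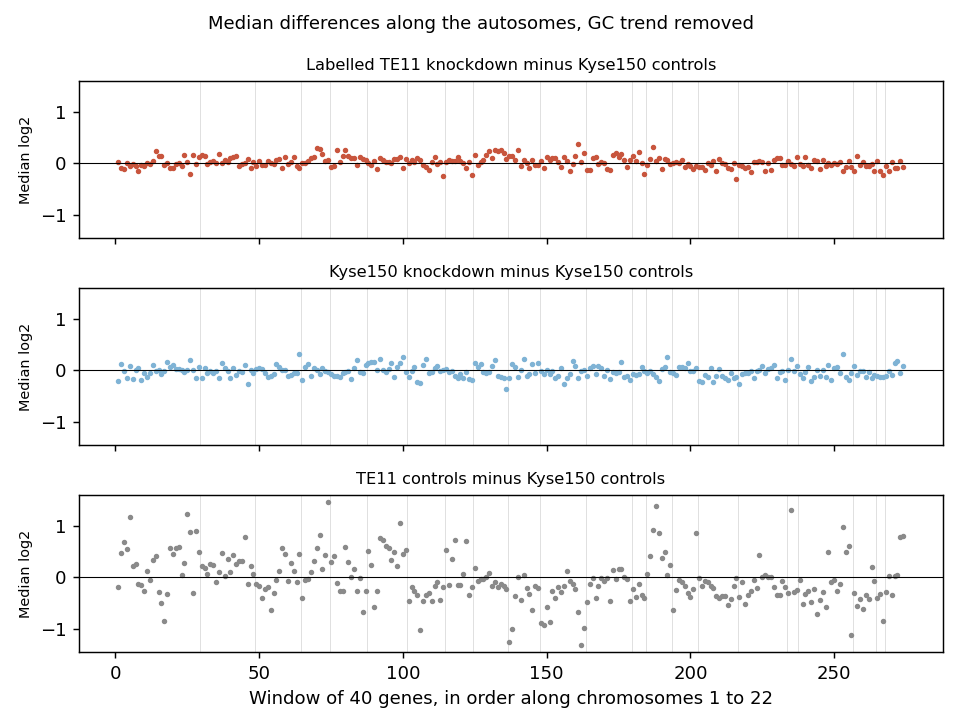
Median log2 difference in windows of 40 protein-coding genes in order along the autosomes, GC trend removed, for 3 pairs of groups, with grey lines between chromosomes. Windows of the labelled TE11 knockdown lie between -0.31 and 0.38, and those of the TE11 controls between -1.31 and 1.45.

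The most extreme folds separated the count tables. Among tested protein-coding genes with a fold change of 8 or more, 139 had all 5 TE11 libraries on one side of all 4 Kyse150 libraries, and 13 did not. Of those 139, 59.7% shared an exon with another gene on the same strand, beside 15.9% of all protein-coding genes tested. Readthrough transcripts, which join neighbouring genes, give such shared exons in some annotations. ZC3H11A, an RNA export factor, had 0 counts in both labelled TE11 knockdown libraries and 502 and 492 in the Kyse150 controls, at least 395-fold lower. It had 0 to 4 counts in the TE11 controls, and 93.6% of its exon length was shared. INO80B, a chromatin remodelling subunit, had 0 counts against 129 and 151, at least 111-fold lower, with 72.0% shared. SPOUT1 had 1 count against 1891 over the group, and 1 count in all 3 TE11 controls. ALDOA, a glycolytic enzyme, was at 1.51 and 2.40 CPM against 1405 and 1441, and at 2.26 to 3.20 in the TE11 controls. LDHB, a lactate dehydrogenase subunit, was at 2.90 and 0.838 CPM against 897 and 908.

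In the other direction, MTRNR2L12 and MTRNR2L8, nuclear copies of a mitochondrial ribosomal RNA gene, were at 569 and 620 CPM and at 22.3 and 22.4 CPM. MTRNR2L12 had 1 count and MTRNR2L8 had 0 in the Kyse150 controls, and the TE11 controls held 1071 to 1292 and 20.1 to 26.3 CPM. As near copies of other sequences their counts are uncertain. MTRNR2L8 was at least 102-fold higher. SLC25A6, a mitochondrial ADP/ATP carrier, was at 239 CPM in both libraries, with 1 count in the Kyse150 controls and 301 to 334 CPM in the TE11 controls. The Kyse150 table lists it under a further identifier for its copy in the pseudoautosomal region, 1 of 47 such identifiers.

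Both labelled TE11 knockdown libraries lay above all 7 other libraries for 2683 genes, or 19.8% of those tested, and below them for 2148, or 15.9%. The largest such folds were again partly shared with the TE11 controls. MRPL30, a mitochondrial ribosomal protein, was at 68.4 and 67.5 CPM, with 1 count in the Kyse150 controls and 41.8 to 45.2 CPM in the TE11 controls. GMPPB, a sugar nucleotide enzyme, was at 50.4 and 48.5 CPM, with 2 counts in the Kyse150 controls and 28.7 to 35.9 CPM in the TE11 controls. The ratio to the Kyse150 controls was 928 for MRPL30, with an exact 95% interval from 166 to 36680, and 338 for GMPPB, from 93.2 to 2793. WDR38, GAS2 and ZCWPW2 had 1 count each in the Kyse150 controls and 16.6 and 19.0, 8.07 and 7.67, and 5.93 and 6.59 CPM in the labelled TE11 knockdown. The TE11 controls were at 12.5 to 16.5, 3.79 to 5.92 and 4.07 to 4.64 CPM, so these genes also split by count table.

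FSIP1, a sperm flagellum gene, was at 492 and 459 CPM, at 0.581 and 0.886 in the Kyse150 controls and at 19.2 to 20.4 in the TE11 controls. It overlaps THBS1 on the opposite strand, and no source used here says whether strand was kept in counting. Reads of the 2 genes may therefore not be separable. In the TE11 table both genes were far higher in the labelled knockdown than in the controls, whereas in the Kyse150 table THBS1 was high and FSIP1 near 0.

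Among the falls, FXYD3, an ion transport regulator, had 0 counts in the labelled TE11 knockdown, 143 and 142 in the Kyse150 controls and 38 to 54 in the TE11 controls. It was at least 113-fold lower than in the Kyse150 controls. ST6GALNAC6, a sialyltransferase, had 0 counts against 142 and 137, at least 111-fold lower, and 2 to 6 counts in the TE11 controls. MATR3, a nuclear matrix RNA-binding protein, was at 0.252 and 0.599 CPM against 278 and 248. PRC1, a spindle midzone protein, was at 0.378 and 0.479 CPM against 175 and 167, and PTP4A1, a phosphatase, at 0.883 and 1.08 against 200 and 178. SDHA, the flavoprotein subunit of succinate dehydrogenase, was at 0.757 and 1.68 CPM against 167 and 166. The TE11 controls were below 4 CPM for these 4 genes. RABAC1 and HSPA1L had 2 counts and 1 count in the labelled TE11 knockdown, against 380 and 189 in the Kyse150 controls. Of these 8 genes, 6 share exons with another gene on their strand, and HSPA1L and SDHA do not.

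FOXD1 and AREG rose to levels far above those of the TE11 controls as well. FOXD1, a forkhead transcription factor, was at 69.4 and 63.1 CPM, against 1.89 and 0.591 in the Kyse150 controls. No other library exceeded 2.33 CPM. The log2 fold change was 5.69 (SE 0.20), with an edgeR adjusted p of 1.15e-63. AREG, amphiregulin, a ligand of the EGF receptor, was at 53.7 and 54.3 CPM against 2.32 and 2.51. The Kyse150 knockdown libraries were at 2.80 and 3.40 and the TE11 controls at 6.82 to 8.40, so none overlapped. The log2 fold change was 4.45 (SE 0.18), with an edgeR adjusted p of 2.09e-57.

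Genes outside the range of the other 7 libraries that did not also split by count table were ranked after the values had been seen, and the 8 largest rises and falls are given as a description. There were 2001 such genes above and 1728 below, or 14.8% and 12.8% of genes tested. After FOXD1 came SERPINB2, a serine protease inhibitor, at 4.67 and 3.83 CPM against 0.581 and 0.148 in the Kyse150 controls. PDCD1LG2, the ligand PD-L2, was at 3.53 and 6.71 CPM against 0.145 and 0.886. NAV3, a microtubule-binding protein, was at 14.5 and 11.3 CPM against 1.31 and 2.07. These 3 genes were at lower levels than FOXD1 and AREG. DNER, a transmembrane protein with EGF-like repeats, was at 23.8 and 20.2 CPM against 4.65 and 5.32. SPOCD1 was at 12.1 and 10.5 CPM against 2.61 and 2.22. ZNF441 and KRTAP2-3 had log2 fold changes of 2.82 and 2.26. Some of these genes were also higher in the Kyse150 knockdown than in the Kyse150 controls. The Kyse150 knockdown libraries were at 1.48 and 1.30 CPM for SERPINB2, 2.80 and 3.08 for PDCD1LG2 and 5.16 and 7.77 for NAV3. For SPOCD1 they were at 6.49 and 5.99 CPM and for ZNF441 at 1.33 and 1.62. They overlapped the Kyse150 controls for DNER, at 7.38 and 4.70 CPM, and lay below them for KRTAP2-3, at 0 and 0.486.

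The falls included NOTCH3, a Notch receptor, at 2.77 and 1.80 CPM against 15.5 and 17.6 in the Kyse150 controls. The Kyse150 knockdown libraries were at 52.7 and 40.6 CPM and the TE11 controls at 283 to 317, so the labelled TE11 knockdown was lowest of all. TJP3, a tight junction scaffold, was at 1.26 and 1.44 CPM against 9.29 and 8.42, with 34.4 and 33.7 in the Kyse150 knockdown and 106 to 115 in the TE11 controls. WNT10A, a Wnt ligand, was at 2.77 and 3.23 CPM against 18.9 and 23.2. ADAMTSL4, a matrix glycoprotein, was at 1.64 and 0.599 CPM against 10.0 and 8.86. All 4 genes are GC rich, between 62.9% and 65.4%. With the GC trend removed their log2 fold changes were -2.37, -2.21, -2.24 and -2.60. COL9A2, EGLN2, GOLGA8A and IFITM2 had log2 fold changes of -3.23, -2.90, -2.78 and -2.76. GOLGA8A and IFITM2 have near-identical relatives, so their counts are uncertain.

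**Figure D4:**
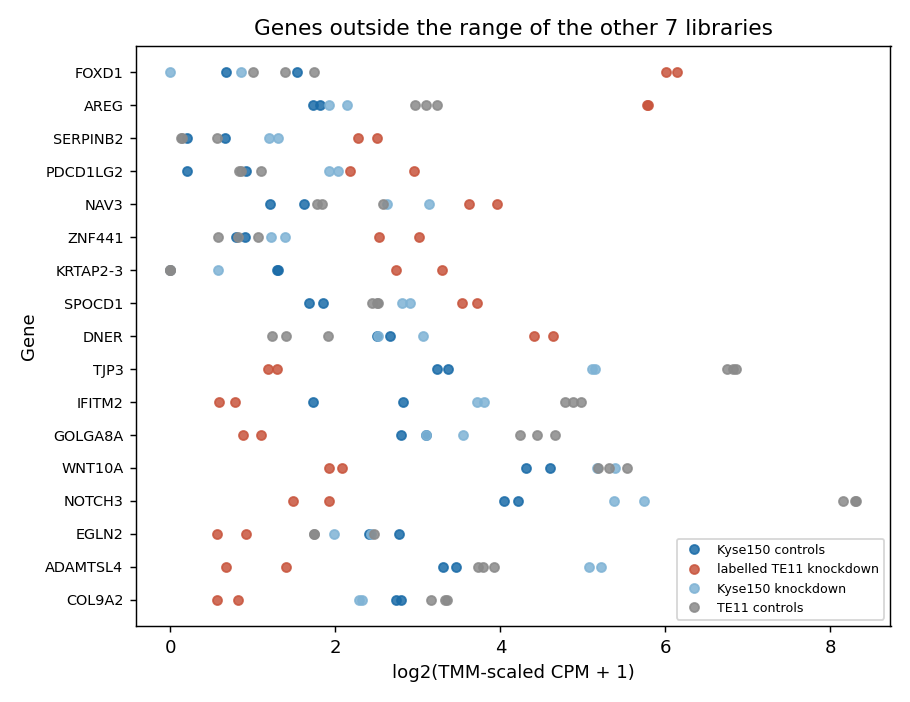
Levels of AREG and of the 8 largest rises and falls, as log2 of CPM plus 1, with 1 point per library and groups by colour. The labelled TE11 knockdown lies to the right of all other libraries for the upper 9 genes and to the left for the lower 8.

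Gene lists of known pathways are described by their counts, beside 32.8% higher, 31.7% lower and a median of 0.00 over all genes tested. Without the GC trend these shares were 26.1% and 25.6%. A list of 15 reference genes taken as steady had 8 higher and 3 lower, or 53.3% and 20%. Its median was 0.16, or 0.09 without the GC trend. JmjC demethylases, the family of KDM2A, had 5 of 21 tested members higher and 10 lower, with a median log2 fold change of -0.16, or -0.05 without the GC trend. JMJD1C was at 71.0 and 62.4 CPM against 27.3 and 27.9 in the Kyse150 controls, and at 85.3 to 92.0 in the TE11 controls. KDM4A, a demethylase of lysines 9 and 36 of histone H3, was at 31.9 and 31.1 CPM against 66.5 and 72.5, with 40.2% of its exon length shared. KDM6B, which acts on lysine 27, was at 17.0 CPM in both libraries against 35.0 in both controls. KDM2B, the closest relative of KDM2A, was at 39.1 and 36.2 CPM against 46.2 and 46.1, with an edgeR adjusted p of 0.00433, and 0.767 without the GC trend.

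Ribosome biogenesis genes were higher in 26 of 44 tested members and lower in 6, with a median of 0.26, and 0.25 without the GC trend. For 27 of the 44 the labelled TE11 knockdown lay above all 7 other libraries, beside 19.8% of all genes tested and 33.3% of the steady reference genes. DDX21, a nucleolar helicase, was at 893 and 918 CPM against 484 and 451 in the Kyse150 controls. NPM1, nucleophosmin, was at 3094 and 3113 CPM against 2029 and 1902, with 2025 to 2228 in the TE11 controls. NOP58, a box C/D ribonucleoprotein, was at 176 and 169 CPM against 76.4 and 64.6. NOP2, a methyltransferase of ribosomal RNA, went the other way, at 1.01 and 0.240 CPM against 237 and 252. It was below 0.3 CPM in the TE11 controls too, and 54.4% of its exon length is shared.

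Heat shock and chaperone genes had 9 of 17 members higher and 5 lower, with a median of 0.26, or 0.23 without the GC trend. The share that was higher, 52.9%, was near the 53.3% of the steady reference genes. HSP90AA1, a cytosolic HSP90, was at 4685 and 4672 CPM against 1733 and 1538, above all other libraries. HSPA8, the constitutive HSP70, was at 4583 and 4774 CPM against 2665 and 2801. HSPD1, the mitochondrial HSP60, was at 1167 and 1154 CPM against 675 and 598, and at 1328 to 1470 in the TE11 controls. HSPB1, a small heat shock protein, was lower, at 258 and 265 CPM against 606 and 632. In the ATF4 and unfolded protein response list, 15 of 33 members were higher and 9 lower. HSPA5, the chaperone BiP, was at 953 CPM in both libraries against 532 and 505. HSP90B1, the endoplasmic reticulum HSP90, was at 733 and 741 CPM against 332 and 299, and at 876 to 1019 in the TE11 controls. DDIT4, an mTOR inhibitor, was at 94.6 and 89.3 CPM against 198 and 183. ASNS, asparagine synthetase, was at 1.26 and 1.20 CPM against 69.7 and 62.9, but also at 0.723 to 1.55 in the TE11 controls, with 44.6% of its exon length shared.

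Matrix and adhesion genes were higher in 14 of 23 tested members and lower in 4, with a median of 0.61, or 0.37 without the GC trend. CD44, the hyaluronan receptor, was at 1160 and 1116 CPM against 551 and 545 in the Kyse150 controls, with 443 to 466 in the TE11 controls. FN1, fibronectin, was at 312 and 352 CPM against 191 and 199. TNC, tenascin C, was at 89.7 and 92.5 CPM against 48.5 and 48.2. For CD44, FN1 and TNC both labelled TE11 knockdown libraries exceeded the other 7. CDH1, E-cadherin, was at 285 and 294 CPM against 436 and 434, below all other libraries. VIM, vimentin, was low everywhere, at 7.57 and 5.75 CPM against 1.60 and 2.36.

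Among immediate early and AP-1 genes 10 of 22 were higher and 4 lower, with a median of 0.22 that became 0.57 without the GC trend. KLF6, a zinc finger factor, was at 159 and 154 CPM against 55.9 and 60.6. DUSP4, a MAP kinase phosphatase, was at 138 and 141 CPM against 83.8 and 84.6. JUNB and FOSL2, AP-1 subunits, were lower, at 53.6 and 47.3 against 97.2 and 81.1 CPM and at 97.7 and 94.3 against 154 and 148. Growth factors and receptors were split, with 10 of 32 higher and 16 lower. FGF2 was at 70.1 and 67.8 CPM against 36.5 and 28.5. TGFBR1, a receptor of TGF-beta, was at 77.9 and 69.1 CPM, with a log2 fold change of 0.97 (SE 0.10). TGFB1 was at 161 and 158 CPM against 230 and 240, with an edgeR adjusted p of 2.39e-19, and 0.268 without the GC trend.

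NOTCH pathway genes were lower in 11 of 15 tested members and higher in 1, with a median of -0.82. Without the GC trend 7 were lower and 1 higher, with a median of -0.26. JAG2, a Notch ligand, was at 35.7 and 36.9 CPM against 102 and 106. The glycosyltransferases LFNG and MFNG, which modify Notch receptors, were at 2.77 and 5.63 against 21.1 and 19.9 CPM and at 6.18 and 5.03 against 23.1 and 26.1. NOTCH1 was at 20.8 and 20.7 CPM against 30.9 and 29.2, with an edgeR adjusted p of 0.772 without the GC trend. NOTCH2 was at 167 and 172 CPM against 169 and 170, with an edgeR adjusted p of 0.673. RBPJ, the DNA-binding factor of the pathway, was the 1 member that was higher, at 77.2 and 78.4 CPM against 38.5 and 31.8.

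Squamous differentiation genes had 7 of 15 tested members lower and 1 higher, with a median of -0.37, or -0.36 without the GC trend. PPL, periplakin, was at 58.8 and 65.5 CPM against 203 and 197, below all other libraries. FLG, filaggrin, was at 12.9 and 14.3 CPM against 54.3 and 52.9, but 10.3 to 12.9 in the other 5 libraries, so that the Kyse150 controls stood apart. EVPL, envoplakin, was at 65.0 and 66.0 CPM against 123 and 119. EMP1, an epithelial membrane protein, was the 1 member that was higher, at 244 and 237 CPM against 155 and 150.

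Targets of NRF2, the oxidative stress regulator, were lower in 16 of 27 tested members and higher in 4, with a median of -0.28, or -0.18 without the GC trend. For 16 of the 27 the labelled TE11 knockdown lay below all 7 other libraries, beside 15.9% of all genes tested. FTL, ferritin light chain, was at 296 and 260 CPM against 427 and 447 in the Kyse150 controls and 6232 to 7033 in the TE11 controls. GSR, glutathione reductase, was at 99.5 and 104 CPM against 169 and 180. TXN, thioredoxin, was higher, at 485 and 509 CPM against 270 and 247. NFE2L2, the gene of NRF2 itself, was at 138 and 146 CPM against 79.0 and 79.8.

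Of 4 tested cancer-testis antigens 3 were higher and none lower. MAGEA4 was at 790 and 783 CPM against 695 and 663, and at 15.5 to 20.0 in the TE11 controls. MAGEA3 was at 234 and 233 CPM against 157 and 161. HOX genes were lower in 8 of 18 tested members and higher in none, with a median of -0.42, and 9 of the 18 share exons with another gene. Without the GC trend 5 were lower, with a median of -0.20, and DESeq2 also called 5. HOXA3 was at 10.7 and 10.1 CPM against 19.5 and 17.1, with 7.86 to 9.31 in the TE11 controls. Genes of chromosome band 11q13, where KDM2A lies, were lower in 31 of 38 and higher in 2, with a median of -0.48, a median GC content of 59.5% and a median of -0.16 without the GC trend. CTTN, cortactin, was at 305 and 284 CPM against 400 and 407 in the Kyse150 controls, and at 2751 to 3060 in the TE11 controls.

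**Figure D5:**
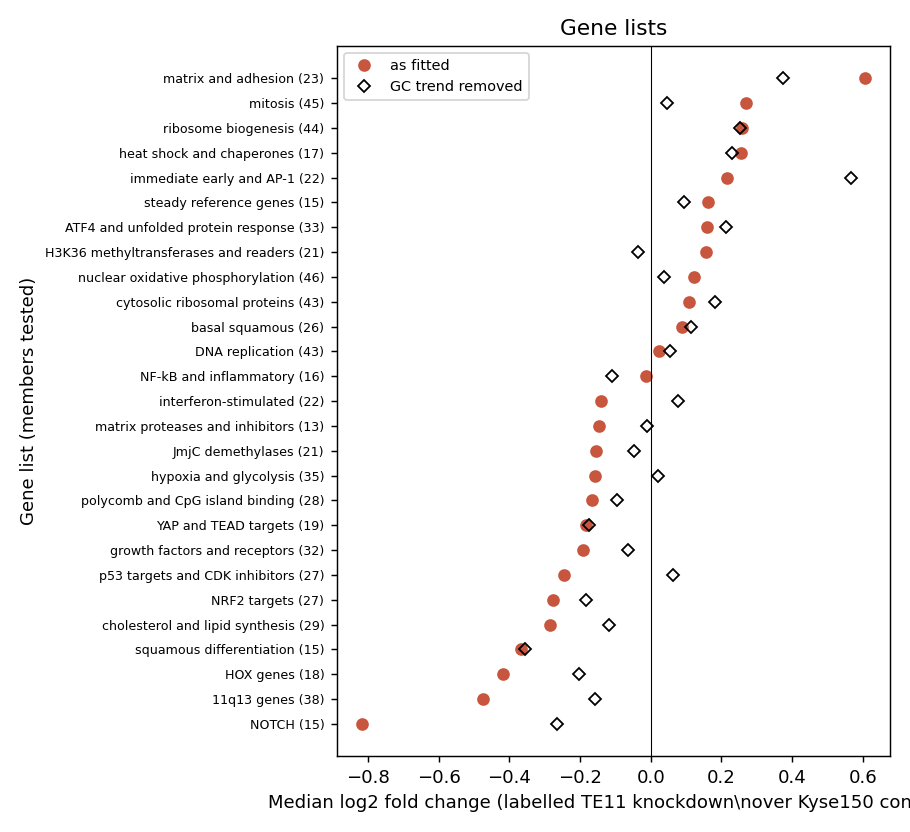
Median log2 fold change of each list with 10 or more tested members, as fitted (filled circles) and with the GC trend removed (open diamonds). The NOTCH list moves from -0.82 to -0.26 and the immediate early list from 0.22 to 0.57, while ribosome biogenesis stays at 0.26 and 0.25.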

How the data were processed

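Polyadenylated RNA from 9 libraries was sequenced, and the 2 tables of gene counts deposited by the authors, 1 per labelled line, were used as given. Per the submitters' processing notes, bcl2fastq 2.19, HISAT2 2.1.0, HTSeq 0.9.1 and DESeq2 were used, and GRCh37 and GRCh38 are both named. Which build, annotation and strand setting belongs to which table could not be read from these notes. The tables list 57820 identifiers for Kyse150 and 60683 for TE11. HTSeq summary rows were left out, and 1.85% to 2.72% of the reads were ambiguous between genes and 42.3% to 44.5% fell in no gene. All per-sample columns were used.

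The 4 libraries were fitted with edgeR 4.0.16 (filterByExpr with a minimum count of 10 and total of 15, TMM, robust quasi-likelihood test, with no term but the group), run in R 4.3.3. P-values were Benjamini-Hochberg adjusted over all genes tested, with a threshold of 0.05. CPM shown are scaled over all 9 libraries. Gene positions, GC content of the longest transcript and shared exons are from GENCODE 29. Where a group had 0 counts the fold is a bound, computed as if that group held 3 counts in all. Where it had 1 to 3, ratios printed have exact 95% intervals. These cover counting error only. Alternatives were DESeq2 1.42.0, other scalings, filters and gene sets, the replicate number as a block, all 9 libraries and each library left out. A lowess GC trend (span 0.3) as an offset, a fit of genes with no shared exon, and the ranking of genes that do not split by table were added after seeing the data. The test was checked on simulated data.

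The comparison and the gene lists were chosen with earlier results of these data known. Named genes were KDM2A, then called protein-coding genes whose mean reached 2 CPM and whose groups did not overlap. Among these the 8 largest rises and falls outside the range of the other 7 libraries were taken, and the 5 largest rises and falls that split by table. In each described list, members were drawn from those with the smallest p, and others named to complete a family (KDM2B, LFNG, NOTCH1, NOTCH2, TNC, VIM, NFE2L2) or to set beside the TE11 controls (ALDOA, LDHB, THBS1, SOX2, CTTN and the keratins and other epithelial markers) were chosen after their values were seen. Some genes that the rule selects are not reported here.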

Additional observations from a re-analysis of the deposited data

Results flagged for a closer look

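The KDM2A difference between libraries labelled knockdown and control was not the same in the labelled lines. The labelled TE11 difference exceeded that of Kyse150 by 0.89 on the log2 scale (SE 0.10), with an edgeR adjusted p of 2.82e-12 by an interaction term in the fit of all 9 libraries. KDM2A was lower in both Kyse150 knockdown libraries than in both of their controls, and higher in both labelled TE11 knockdown libraries than in the 3 TE11 controls. The line label of the TE11 knockdown libraries was not borne out, so their difference from the TE11 controls is one between libraries as labelled. Whether it holds a response to the shRNA was not tested.

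Among identifiers outside the comparison, 35 had 5 CPM or more in both labelled TE11 knockdown libraries and 0 counts in the whole Kyse150 table, and none of the 35 was at 0 in the TE11 controls. Of those at 5 CPM or more in every TE11 library, 6 are pseudoautosomal genes that the Kyse150 table also lists under a further identifier, which was not joined, so their 0 does not show a difference in level. An example without such an identifier, picked after its values were seen, is KMT2B, a histone H3 lysine 4 methyltransferase. It had 400 and 434 counts in the labelled TE11 knockdown and 633 to 827 in the TE11 controls. KMT2B thus split by count table too, and whether its 0 shows a difference in level was not tested.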

How the results depend on the processing

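KDM2A was lower in every fit that included it, 16 alternatives, with log2 fold changes from -0.42 (upper quartile scaling) to -0.14 (all 9 libraries with the GC trend removed, added after seeing the data) and adjusted p from 9.78e-11 to 0.0460. It overlaps a gene on the opposite strand and so is not in the fit of genes that overlap no other. Leaving out each library in turn gave -0.39 to -0.25 for KDM2A, 7304 to 8184 genes called and 2080 to 2372 at least doubled or halved. Genes that overlap no other gene, 3607 in all, gave fewer calls because fewer were tested: 2357, with 1230 higher and 1127 lower, and 555 at least doubled or halved, 261 doubled and 294 halved. With the GC trend removed 1512 genes were at least doubled or halved, 577 of them doubled. DESeq2 called 6533 genes. No scaling moved the median of all genes by over 0.1. None of the genes named for the size of their difference changed direction or lost its call under an alternative that included it and gave an adjusted p.

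The replicate block gave 8609 genes called, and -0.33 for KDM2A. Same-numbered libraries did not deviate together, with a correlation of -0.00983 over 10156 genes, so the numbers are not taken to pair them.

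List medians changed sign in some fits for DNA replication, H3K36 methyltransferases and readers, NF-kB and inflammatory, basal squamous, hypoxia and glycolysis, interferon-stimulated, matrix proteases, nuclear oxidative phosphorylation, and p53 lists, and for the squamous markers. The described pathway lists kept their sign. With 2 libraries a group, the spread within a group is poorly known, and genes with few counts carry wide errors.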

Other observations

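Cholesterol and lipid synthesis genes were lower in 15 of 29 tested members and higher in 8 in the labelled TE11 knockdown. Over all genes tested, 31.7% were lower and 32.8% higher. The median of the list was -0.28, or -0.12 without the GC trend. EBP, a sterol isomerase, was at 21.8 and 25.0 CPM against 107 and 112 in the Kyse150 controls, and at 13.7 to 16.7 in the TE11 controls. SREBF1, a regulator of lipid synthesis, was at 84.9 and 78.9 CPM against 188 and 186, below the other 7 libraries. FASN, fatty acid synthase, was at 647 and 655 CPM against 989 and 1067, and at 1351 to 1526 in the TE11 controls.

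Of 45 mitosis genes, 24 were higher and 9 lower, with a median of 0.27, beside 32.8% and 31.7% of all genes tested. Without the GC trend 19 were higher and 13 lower, with a median of 0.05, beside 26.1% and 25.6% of all genes tested. CENPE, a kinetochore motor, was at 95.5 and 95.6 CPM against 12.5 and 8.27, and at 121 to 147 in the TE11 controls. NUSAP1, a spindle protein, was at 0 and 0.359 CPM against 109 and 107, and at 0 in the TE11 controls, with 62.2% of its exon length shared.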
